A study of Mus musculus with 12 samples.

Results

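The 8 genes described here, Mbp, Pmp22, Mag, Prx, Egr2, Sox10, Ncmap and Pmp2, are used as markers of Schwann cells that make myelin, although Sox10 is found in the other glia of the ganglion too. They were taken by name from the 44345 gene names of a table of read counts from mouse dorsal root ganglia (DRG), and all 8 were among the 16238 genes abundant enough to be tested. The DRG that project into the sciatic nerve were taken from C57BL/6 mice aged 5 to 8 weeks. Mice had spent 10 days in standard housing (SH) or in environmental enrichment (EE) and had then undergone sham surgery or sciatic nerve axotomy (SNA), a complete transection of the nerve, 24 h before the ganglia were taken. The 2 standard groups (SH Sham and SH SNA) and the 2 enriched groups (EE Sham and EE + SNA) had 3 samples each, every sample being a pool of the ganglia of 2 mice. No transgene is given for any group, and no drug is given as differing between them. The study reports isoflurane anaesthesia for all surgeries, with buprenorphine and carprofen as pain relief around the operation.

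Schwann cells wrap single large axons of peripheral nerves and of the ganglia in compacted membrane. SOX10, a transcription factor of all neural crest glia, and EGR2, also called KROX20, act together to switch on myelin genes, and the proteins then build the sheath in layers. When an axon is cut, the Schwann cells beyond the cut turn down myelin genes and take on a repair state led by JUN. The ganglion itself lies on the near side of the cut, where the axons stay connected to their cell bodies. The question of each comparison was whether these genes differed in the ganglia after injury, after enrichment or after both.

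The proteins have different places in the sheath. Myelin basic protein (Mbp) holds the inner faces of compact myelin together, Pmp22 is a membrane protein of compact myelin whose duplication causes Charcot-Marie-Tooth neuropathy, and Pmp2 is a fatty acid binding protein of the sheath. Mag faces the axon across the innermost membrane, periaxin (Prx) anchors the outer surface of the sheath through DRP2 and dystroglycan, and Ncmap belongs to non-compact myelin.

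Promoter windows of 300 bases, from 250 before to 50 after a start of transcription, were read from RefSeq (GRCm38.p6). There were 15 such windows for 5 of the genes. They were searched on both strands for GCGNGGGCG, the letters that EGR proteins bind, and for ACAANG, a short SOX core. The EGR letters were in 0 of the 15 windows and in 5.55% of all 32851 windows, and the SOX core was in 4 of the 15, of Mag and Egr2, and in 41.2% of all windows. The windows of Pmp22 and Prx are shown because both genes passed the test after injury, and the window of Mag because it holds the SOX core 2 times, on opposite strands. Capitals mark the SOX core or its reverse complement. They cover bases 63128732 to 63129031 of chromosome 11 for Pmp22, 27499074 to 27499373 of chromosome 7 for Prx, both on the plus strand, and 30914814 to 30915113 of chromosome 7 for Mag, on the minus strand.
Pmp22: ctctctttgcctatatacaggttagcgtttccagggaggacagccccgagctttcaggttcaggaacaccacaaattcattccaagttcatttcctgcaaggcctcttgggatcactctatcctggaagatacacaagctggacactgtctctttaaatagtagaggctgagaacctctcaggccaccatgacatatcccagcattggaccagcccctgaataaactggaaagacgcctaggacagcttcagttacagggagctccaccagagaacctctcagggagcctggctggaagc
Prx: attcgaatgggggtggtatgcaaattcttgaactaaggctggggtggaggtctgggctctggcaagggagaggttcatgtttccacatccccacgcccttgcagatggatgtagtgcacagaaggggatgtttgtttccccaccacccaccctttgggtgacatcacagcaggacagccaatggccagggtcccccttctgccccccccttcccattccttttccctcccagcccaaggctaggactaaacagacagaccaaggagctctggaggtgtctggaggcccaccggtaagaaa
Mag: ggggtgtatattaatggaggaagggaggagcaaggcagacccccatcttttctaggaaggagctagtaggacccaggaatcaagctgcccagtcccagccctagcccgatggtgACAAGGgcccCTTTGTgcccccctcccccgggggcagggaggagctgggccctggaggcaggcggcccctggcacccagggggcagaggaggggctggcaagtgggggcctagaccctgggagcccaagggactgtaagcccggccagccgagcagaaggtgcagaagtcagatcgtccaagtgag
A match is a run of letters and not a measured site.

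On GRCm38, the assembly that mm10 names, the GENCODE annotation places Mbp on chromosome 18 from 82475146 to 82585637, Pmp22 on chromosome 11 from 63128982 to 63159547 and Mag on chromosome 7 from 30899176 to 30914873. Prx lies on chromosome 7 from 27499324 to 27520214, Egr2 on chromosome 10 from 67535475 to 67542188 and Sox10 on chromosome 15 from 79154908 to 79165240. Ncmap lies on chromosome 4 from 135369576 to 135398227, and Pmp2 on chromosome 3 from 10179851 to 10183929. Prx has 5579 bases of exon, and 300 of them overlap Gm15541 on the other strand. Pmp2 has 1408, and 1224 of them overlap Gm37389 on the same strand, so that reads in these stretches are uncertain.

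Samples held 11343579 to 22871460 counted reads, and the 8 genes together took 0.357% to 0.6858% of them. The labels were checked with 6 injury response genes, and all 6 (Atf3, Sprr1a, Gap43, Sox11, Gal and Npy) were higher after SH SNA and after EE + SNA. The study describes EE Sham as an earlier dataset, and sequencing runs are not named in the labels. Had EE Sham come from a separate run, batch and housing could not be told apart in its comparisons with SH Sham. Batch and surgery could then not be told apart between EE + SNA and EE Sham. The SNA effect fitted over both housings also rests on EE Sham, as does the test of whether that effect differs between housings. A batch difference could enter both, and its size was not tested. P-values measure the spread between pools of 2 mice. In whole ganglia, more Schwann cells and more RNA per Schwann cell cannot be told apart. Levels are also shares of all counted reads, so a changed share of reads from other cells would move them too. The part of other cells was not tested.

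Levels were compared between genes in FPKM, which the authors had divided by gene length. In SH Sham, Pmp22 had 973 ± 63.3 FPKM and Mbp 193 ± 25.5 FPKM (mean ± SD, n = 3). Prx followed with 66.5 ± 7.10 FPKM, Ncmap with 37.0 ± 4.04 FPKM, Pmp2 with 31.0 ± 10.1 FPKM and Sox10 with 24.8 ± 1.07 FPKM. Mag, with 8.94 ± 0.618 FPKM, and Egr2, with 6.51 ± 0.306 FPKM, were lowest. The order from Pmp22 over Mbp and Prx to Ncmap, and that of Sox10, Mag and Egr2, held in 12 of 12 samples between neighbours. The SH Sham ranges of Ncmap and Pmp2 overlapped, as did those of Pmp2 and Sox10, and Pmp2 was above Sox10 in 5 of 12 samples. Between the lowest and the highest sample, Sox10 differed 1.38-fold and Egr2 2.86-fold in FPKM, with the other genes between them.

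**Figure D1:**
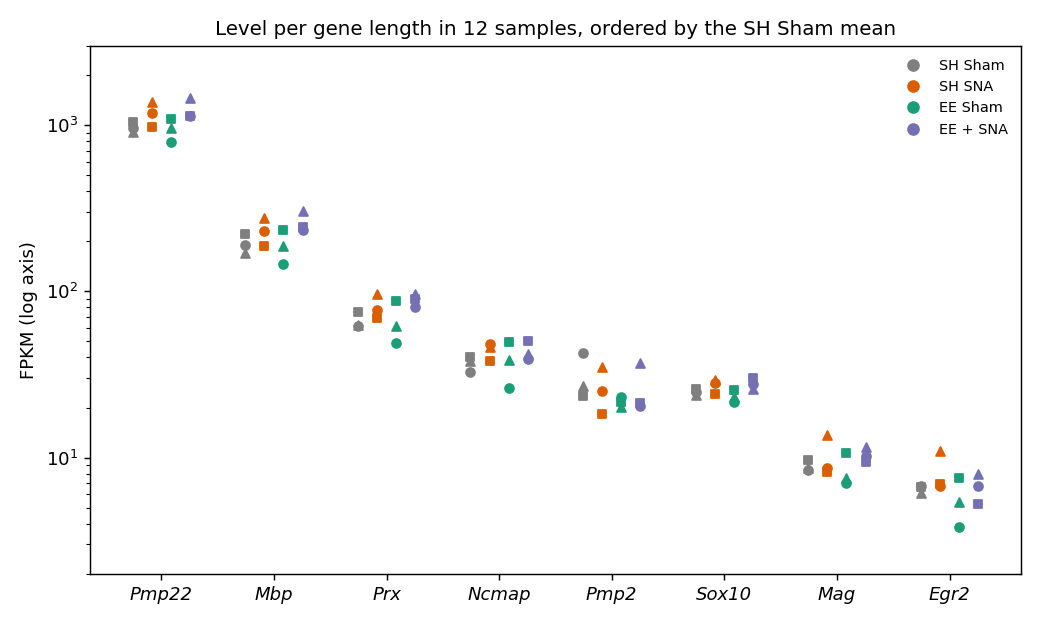
FPKM of the 8 genes on a log axis, ordered by the SH Sham mean. Each point is 1 of 12 samples, with groups in colours and replicates 1, 2 and 3 as circles, squares and triangles. Pmp22, between 796 and 1462 FPKM, lies above every other gene in all samples.

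Levels of a gene between samples are given in CPM, read counts divided by library size after TMM, a correction for library composition. Mbp had 1611, 1839 and 1420 CPM in SH Sham, 1951, 1597 and 2329 CPM in SH SNA, 1261, 1943 and 1577 CPM in EE Sham, and 2018, 2059 and 2625 CPM in EE + SNA. The EE + SNA samples were all above both sham groups, whereas SH SNA replicate 2 lay within the SH Sham range. For Pmp22 the values were 2288, 2432 and 2145 CPM in SH Sham, 2809, 2321 and 3240 CPM in SH SNA, 1928, 2548 and 2285 CPM in EE Sham, and 2714, 2681 and 3505 CPM in EE + SNA. Again SH SNA replicate 2 was the single SNA sample within the sham range. Prx had 347, 414 and 350.3 CPM in SH Sham, 431, 391 and 537 CPM in SH SNA, 281, 482 and 344 CPM in EE Sham, and 459, 499.7 and 546 CPM in EE + SNA. All EE + SNA samples were above SH Sham, but EE Sham replicate 2, at 482 CPM, was above the lowest of them.

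The transcription factors spanned narrower and wider ranges. Sox10 had 68.0, 69.7 and 64.1 CPM in SH Sham, 76.1, 66.4 and 79.3 CPM in SH SNA, 60.5, 68.5 and 62.5 CPM in EE Sham, and 76.4, 81.2 and 71.2 CPM in EE + SNA. All 3 EE + SNA samples were above all 6 sham samples. Egr2 had 22.9, 22.5 and 20.9 CPM in SH Sham, 23.0, 23.8 and 37.2 CPM in SH SNA, 13.4, 25.3 and 18.4 CPM in EE Sham, and 23.2, 17.8 and 27.4 CPM in EE + SNA. SH SNA did not overlap SH Sham for Egr2, by a margin of 22.9 to 23.0 CPM, and EE + SNA overlapped both sham groups.

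Pmp2 was spread differently from the other genes. It had 58.3, 32.0 and 36.5 CPM in SH Sham, 34.6, 25.3 and 48.3 CPM in SH SNA, 32.3, 29.1 and 27.6 CPM in EE Sham, and 28.4, 29.1 and 51.6 CPM in EE + SNA. Its highest sample of all was SH Sham replicate 1. Mag lay between 17.4 and 25.5 CPM in the sham samples and between 20.0 and 33.3 CPM in the SNA samples. Ncmap lay between 60.5 and 108.8 CPM in the sham samples and between 86.2 and 111.4 CPM in the SNA samples, and for both genes the sham and SNA ranges overlapped.

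**Figure D2:**
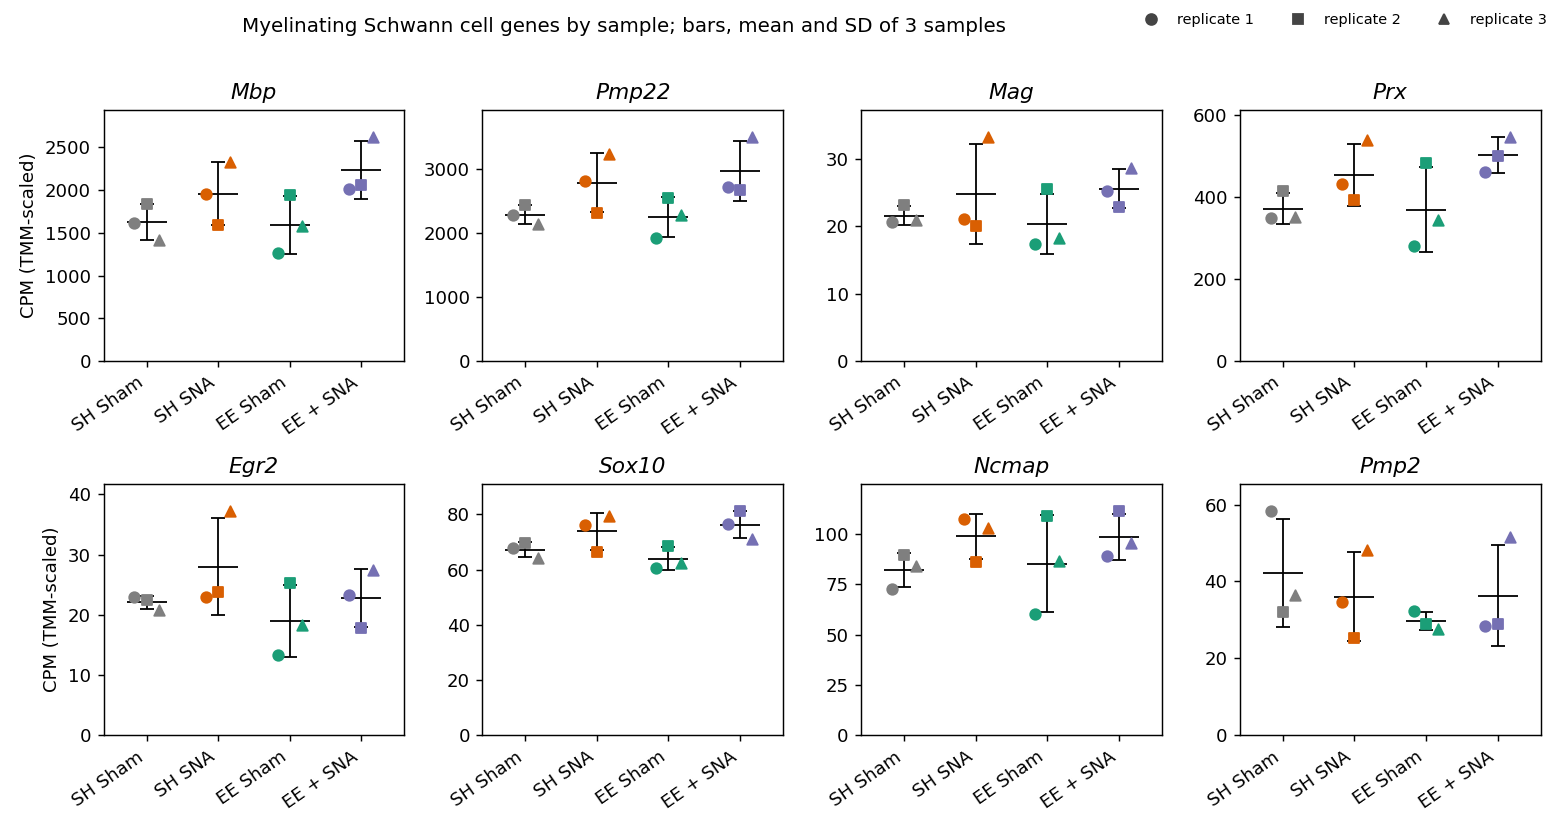
TMM-scaled CPM of each gene in the 4 groups, with replicates 1, 2 and 3 as circles, squares and triangles and the mean and SD of 3 samples in black. For Mbp, the EE + SNA samples (2018 to 2625 CPM) lie above all sham samples (1261 to 1943 CPM), and for Pmp2 all groups overlap.

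Mbp, Pmp22, Prx and Sox10 were higher after SNA over both housings. The effect of SNA was fitted on 12 samples with housing as a term, by edgeR's quasi-likelihood test with Benjamini-Hochberg adjustment over all genes tested. Mbp was 1.30-fold higher (log2 fold change 0.38 ± 0.11 SE, adjusted P = 0.0166), Pmp22 1.27-fold (0.34 ± 0.085, adjusted P = 0.00787) and Prx 1.29-fold (0.37 ± 0.10, adjusted P = 0.0176). Sox10 was 1.15-fold higher (0.20 ± 0.053, adjusted P = 0.0122). These 4 of 8 genes stood against 22.4% of all genes called in either direction. In 5 of 6 SNA samples Mbp, Pmp22 and Sox10 exceeded every sham sample of the same housing, and Prx did in 4 of 6. Egr2 did in 4 of 6 too, Ncmap in 3, Mag in 2 and Pmp2 in 1. This count was not made for all genes. Of all genes, 29.4% did not overlap between SH SNA and SH Sham, and 25.8% between EE + SNA and EE Sham. Without EE Sham replicate 2, 6 of the 8 genes were called, Egr2 and Ncmap in addition, and Prx had an adjusted P of 0.0502 without SH SNA replicate 3. EE Sham replicate 2 was the highest of its group for 7 of the 8 genes. The share of all genes called without it is not given.

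The other 4 genes did not pass the adjustment. Mag had a log2 fold change of 0.26 (95% interval 0.0084 to 0.51, adjusted P = 0.13), Ncmap one of 0.24 (0.022 to 0.46, adjusted P = 0.107) and Egr2 one of 0.29 (−0.0073 to 0.59, adjusted P = 0.154). At an unadjusted P-value of 0.05, the threshold of the study, 6 of the 8 genes were called, with Mag and Ncmap, where 34.7% of all genes were. Pmp2 had 0.016 (−0.37 to 0.40, adjusted P = 0.965), an interval that holds the changes of the other 7 genes. The median log2 fold change of the 8 genes was 0.27, and that of all genes tested was 0.0071.

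After SH SNA alone, compared with SH Sham, 0 of the 8 genes passed the adjustment in edgeR, where 11.2% of all genes did. DESeq2 called 1, Ncmap, and limma on log2(FPKM + 1) called 0. At the unadjusted threshold 5 were called, Mbp, Pmp22, Prx, Egr2 and Ncmap, all higher, where 25.2% of all genes were. That count was 1 without SH Sham replicate 1 or without SH Sham replicate 3, 2 without SH SNA replicate 3 and 3 without SH SNA replicate 1. Ncmap had a log2 fold change of 0.27 ± 0.090 SE (adjusted P = 0.0767) and Egr2, the largest, one of 0.35 ± 0.15 (adjusted P = 0.186). The groups did not overlap for 1 of 8 genes, Egr2, and for 29.4% of all genes. SH SNA replicate 2 was the lowest sample of its group for 7 of the 8 genes. Without it, Mbp, Pmp22, Prx and Ncmap were called, with log2 fold changes of 0.40, 0.40, 0.39 and 0.36. Leaving out the lowest SH SNA sample raises these changes, and the share of all genes called without it is not given. Without SH SNA replicate 3, the change of Egr2 was 0.081 in place of 0.35, and that of Mag was −0.073 in place of 0.20.

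After EE + SNA, compared with SH Sham, Mbp, Pmp22 and Prx were called. Mbp was 1.37-fold higher (log2 fold change 0.46 ± 0.11 SE, adjusted P = 0.0151), Pmp22 1.29-fold (0.37 ± 0.094, adjusted P = 0.022) and Prx 1.35-fold (0.44 ± 0.082, adjusted P = 0.00458), and 12.5% of all genes were called. With all 12 samples in one fit 0 of the 8 genes were called (Prx at an adjusted P of 0.0697), and limma on log2(FPKM + 1) called Prx alone. DESeq2 and the likelihood ratio test called these 3 and Ncmap. At the unadjusted threshold Mag, Sox10 and Ncmap were called too, which made 6 of 8, where 27.2% of all genes were. Egr2, at 0.022 (95% interval −0.26 to 0.31), and Pmp2, at −0.24 (−0.74 to 0.25), were not called. For Mbp, Pmp22, Prx and Sox10 all EE + SNA samples were above all SH Sham samples, and the groups did not overlap for 31.8% of all genes. Prx alone was called without SH Sham replicate 1 or without SH Sham replicate 3 (Mbp at an adjusted P of 0.0615 and 0.0588), and without EE + SNA replicate 3 the change of Pmp22 was 0.23.

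Against EE Sham, the SNA effect within enriched housing, 0 of the 8 genes passed the adjustment in edgeR, and 0 did in DESeq2 or in limma on log2(FPKM + 1), where 4.83% of all genes were called in edgeR. At the unadjusted threshold 4 were called, Mbp, Pmp22, Prx and Sox10, all higher, where 20.6% of all genes were. Mbp had a log2 fold change of 0.48 ± 0.14 SE (adjusted P = 0.0761), Pmp22 one of 0.39 ± 0.12 (adjusted P = 0.0797) and Sox10 one of 0.25 ± 0.077 (adjusted P = 0.0871). All EE + SNA samples were above all EE Sham samples for Mbp, Pmp22 and Sox10, and 25.8% of all genes did not overlap. EE Sham replicate 2 was the highest EE Sham sample for 7 of the 8 genes. Without it, 5 were called, Mbp, Pmp22, Mag, Prx and Sox10 with Mbp at 0.64, and 7 passed the unadjusted threshold. Leaving out the highest EE Sham sample raises these changes, and the share of all genes called without it is not given.

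**Figure D3:**
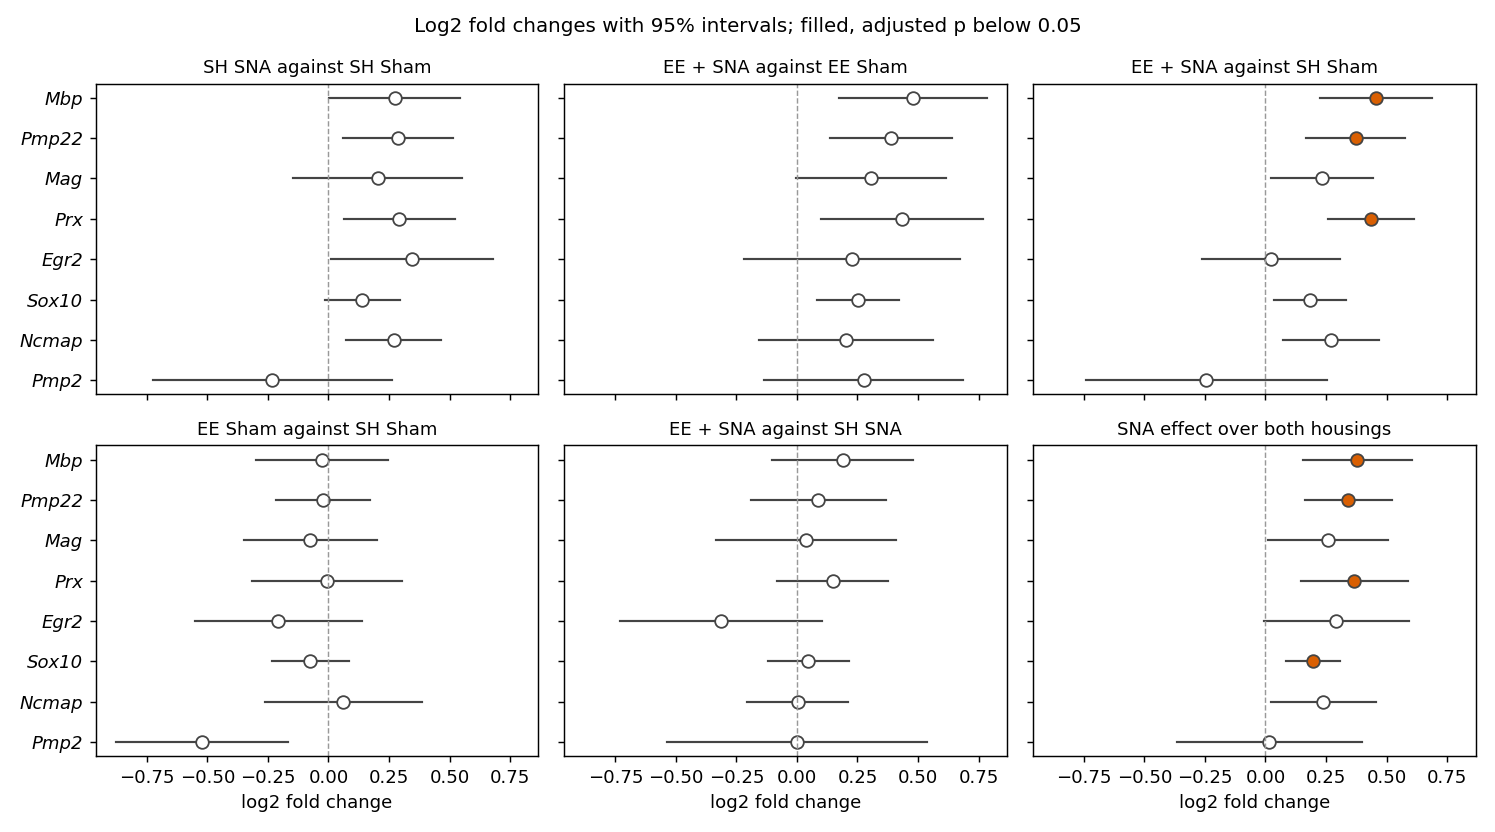
Log2 fold changes of the 8 genes in 6 comparisons, with 95% intervals from edgeR. Filled points have an adjusted P below 0.05 over all genes tested, which are Mbp, Pmp22 and Prx for EE + SNA against SH Sham and Mbp, Pmp22, Prx and Sox10 for the SNA effect over both housings. Pmp2 has the widest intervals in most panels and lies apart from the others for EE Sham against SH Sham.

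Between EE Sham and SH Sham, the effect of enrichment without injury, 0 of the 8 genes passed the adjustment in edgeR, DESeq2 or limma on log2(FPKM + 1). Of all genes, 0.00616% were called. At the unadjusted threshold 1 of 8 was called, Pmp2, where 2.97% of all genes were, and 4 were called without EE Sham replicate 2. That sample was the highest of its group for 7 of the 8 genes, and the share of all genes without it is not given. Pmp2 was 0.697-fold as abundant in EE Sham (log2 fold change −0.52 ± 0.17 SE, unadjusted P of 0.00708, adjusted P = 0.9999). The groups overlapped for all 8 genes, whereas 7.61% of all genes did not overlap. With the replicate number as a block, Pmp2 passed the adjustment, at −0.48 ± 0.088 (adjusted P = 0.00209), although no pairing of these samples is described. Without SH Sham replicate 1, in which Pmp2 was highest, the change was −0.21 and its adjusted P = 0.999. For Mbp the change in EE Sham was −0.026 (95% interval −0.30 to 0.25) and for Pmp22 −0.022 (−0.22 to 0.17). Egr2 had −0.21 (−0.55 to 0.14), which became −0.0097 without EE Sham replicate 1, its lowest sample, and −0.48 without EE Sham replicate 2, its highest.

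Between EE + SNA and SH SNA, the effect of enrichment within injured ganglia, 0 of the 8 genes passed either threshold in edgeR, and DESeq2 and limma called 0 after adjustment. Of all genes, 0% passed the adjustment and 4.1% the unadjusted threshold. The largest differences between EE + SNA and SH SNA were those of Egr2, with −0.31 (95% interval −0.73 to 0.10), and of Mbp, with 0.19 (−0.10 to 0.48). Ncmap had 0.0027 (−0.21 to 0.21). Without SH SNA replicate 3, the difference of Egr2 was −0.054 and 3 genes passed the unadjusted threshold. That sample was the highest of its group for 7 of the 8 genes, and the share of all genes without it is not given. The groups overlapped for all 8 genes, and 10.4% of all genes did not overlap.

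The interaction, which tests whether the SNA effect differed between housings, called 0 of the 8 genes at either threshold in edgeR, and DESeq2 and limma called 0 after adjustment. Of all genes, 0% passed the adjustment and 2.61% the unadjusted threshold. The largest interaction was that of Pmp2, with a log2 value of 0.52 ± 0.35 SE (adjusted P = 0.99995), and it was 0.19 without EE + SNA replicate 3. For Mbp the value was 0.21 (95% interval −0.24 to 0.67). Mbp, Pmp22 and Prx passed the test against SH Sham in EE + SNA and not in SH SNA, but these genes were called neither by the interaction nor between the 2 injured groups.

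Within groups, the genes moved from sample to sample together. Log2 CPM were taken relative to the group mean, so that no group difference enters. Over 12 samples, the 21 pairs of the 7 genes without Pmp2 had a median Pearson r of 0.819 (0.36 to 0.969), highest for Mbp with Pmp22. Pmp2 had a median r of 0.45 with the other 7 genes (−0.151 with Ncmap to 0.595). The points share libraries and the genes share the cells they come from, and the correlations are given as a description. SH SNA replicate 2 was the lowest of its group for 7 of the 8 genes and SH SNA replicate 3 the highest for 7, EE Sham replicate 1 the lowest for 7 and EE Sham replicate 2 the highest for 7, and EE + SNA replicate 3 the highest for 6. In EE Sham this spread was as wide as 13.4 to 25.3 CPM for Egr2 and 60.5 to 108.8 CPM for Ncmap.

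**Figure D4:**
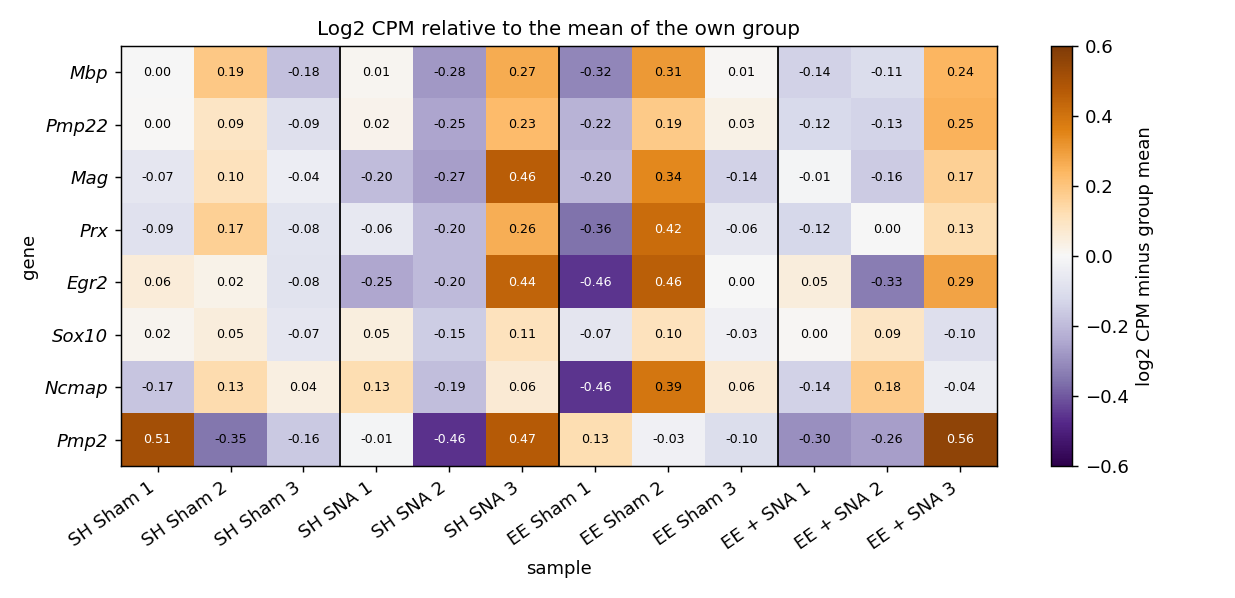
Log2 CPM of each gene (rows) in each sample (columns) minus the mean of the sample's own group. Orange is above and purple below the group mean. Columns such as EE Sham 1 and EE Sham 2 have nearly 1 colour from Mbp to Ncmap, and the Pmp2 row departs from it in SH Sham and EE Sham.

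A score for each sample was the mean over the 8 genes of these deviations, each divided by its SD. Of 15336 other genes with a mean of at least 1 CPM, those most alike to the score over 12 samples were Nipal1 (Pearson r of 0.986, Spearman rho of 0.965), Cldn19 (r of 0.965, rho of 0.951), Capg (r of 0.961), Tk2 (r of 0.959) and D630003M21Rik (r of 0.958). Cldn19 encodes a claudin of Schwann cell tight junctions, Capg caps actin filaments, and Tk2 is a mitochondrial thymidine kinase. Cldn19 was called in the SNA effect over both housings (log2 fold change 0.31 ± 0.11 SE, adjusted P = 0.0453), and Nipal1, at 0.21 ± 0.18 (adjusted P = 0.452), was not. Myelin genes that were not part of the score stood high in the same order, with Pllp at rank 11, Fa2h at 21, Gjb1 at 28 and Mal at 35. The fibroblast collagens Col1a2 and Col1a1 were at ranks 27 and 46.

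Other myelin genes were counted by list in the SNA effect over both housings, in which 22.4% of all genes were called. Of 7 genes of other myelin proteins and lipid enzymes, 5 rose and 0 fell, with a median log2 fold change of 0.30. They included Fa2h, which makes the hydroxylated fatty acids of myelin lipids, with 0.41 ± 0.11 SE (adjusted P = 0.0102), the sheath proteins Mal, with 0.36 (adjusted P = 0.00981), and Pllp, with 0.31 (adjusted P = 0.0229), and Cnp, a phosphodiesterase of myelinating glia, with 0.30 (adjusted P = 0.00335). Of 10 genes of non-compact myelin, the node and adhesion, 5 rose and 0 fell, with a median of 0.25. Drp2, the partner of periaxin, had 0.49 ± 0.10 (adjusted P = 0.00182), and Gjb1, the connexin of non-compact myelin, had 0.41 ± 0.11 (adjusted P = 0.0121). Cldn19 and Gldn, a gliomedin that gathers sodium channels at nodes, had 0.31 and 0.30.

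Of 14 regulators of myelination and their receptors, 6 rose and 2 fell, with a median of 0.15, where 22.4% of all genes were called in either direction. Tead1, with 0.29 ± 0.047 SE (adjusted P = 0.000234), and its coactivator Yap1, with 0.26 ± 0.067 (adjusted P = 0.0109), rose, as did Zeb2, a repressor needed for Schwann cell differentiation, with 0.25 (adjusted P = 0.006). Nrg1, the growth factor on axons that sets myelin thickness, fell by 0.41 on the log2 scale (SE 0.044, adjusted P = 2.91e-06). Of 16 genes of immature and repair Schwann cells, 12 were tested, of which 3 rose and 2 fell, with a median of 0.055. Jun rose by 0.68 ± 0.042 (adjusted P = 5.08e-09), Shh by 0.47 ± 0.069 (adjusted P = 7.68e-05) and Bdnf by 0.34 ± 0.049 (adjusted P = 7.34e-05), and Id2 fell by 0.23 (adjusted P = 0.0275). Axotomized neurons also express Jun and Bdnf, and Nrg1 is a gene of the neurons. Sox2, with 0.031 (adjusted P = 0.858), was not called, and Olig1, Gdnf, Artn and Pax3 had at most 8 counts in any sample.

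**Figure D5:**
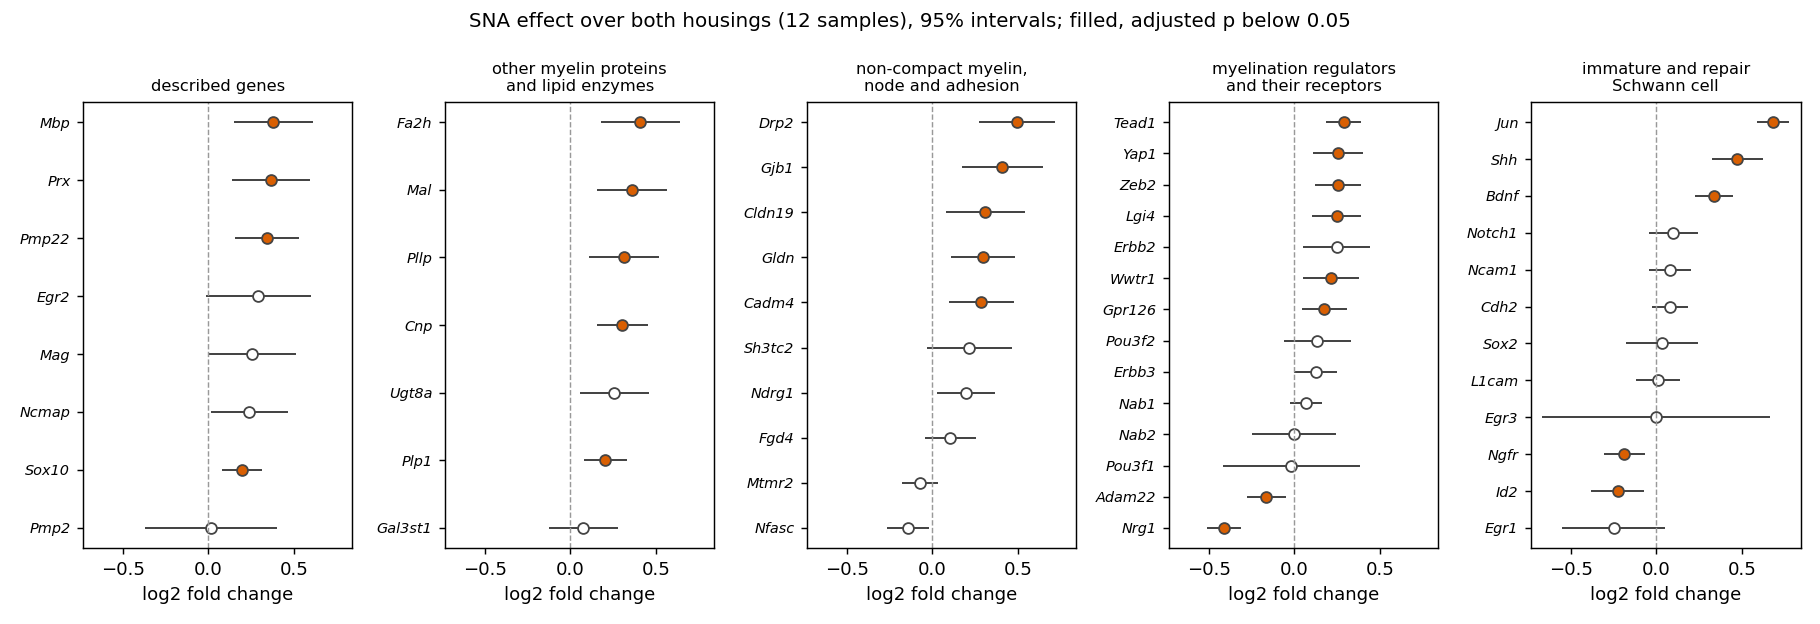
Log2 fold changes of the SNA effect over both housings for the 8 genes and 4 lists of related genes, with 95% intervals. Filled points have an adjusted P below 0.05. In the lists of myelin and of non-compact myelin genes all filled points lie above 0, and in the lists of regulators and of immature and repair cells they lie on both sides, from Nrg1 at −0.41 to Jun at 0.68.

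Markers of other cells were read in the same samples, and their part in the results was not tested. Counts of genes called are for the SNA effect over both housings, with its 22.4% of all genes, unless another comparison is named. Of 8 sensory neuron genes, 4 fell after SNA (Isl1, Rbfox3, Snap25 and Nefl, with Isl1 at −0.41), and their summed level was 13545 to 13930 CPM in SH Sham, 12286 to 13121 CPM in SH SNA, 12632 to 13056 CPM in EE Sham and 12150 to 12769 CPM in EE + SNA. Of 6 fibroblast and perineurium genes 3 rose (Slc2a1, Dcn and Pdgfra), and the sum was 682 to 764 CPM in SH Sham, 726 to 983 CPM in SH SNA, 676 to 787 CPM in EE Sham and 860.5 to 1077 CPM in EE + SNA. As with the myelinating genes, SH SNA replicate 2 (726 CPM) and EE Sham replicate 1 (676 CPM) were lowest in their groups. Of 7 macrophage genes 3 rose (C1qa, C1qb and Csf1r), with sums of 57.7 to 59.5 CPM in SH Sham, 62.7 to 80.7 CPM in SH SNA, 45.9 to 59.4 CPM in EE Sham and 61.8 to 79.7 CPM in EE + SNA.

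Among other glia, 1 of 6 satellite glia genes rose, Glul, a share below the 22.4% of all genes, with sums of 2357 to 2575 CPM in SH Sham, 2389 to 2701 CPM in SH SNA, 2083 to 2437 CPM in EE Sham and 2382 to 2579 CPM in EE + SNA. Of 7 genes of non-myelinating Schwann cells or of all Schwann cells, Gfap and Cdh19 rose and Ngfr fell, and the sum was 2193 to 2251 CPM in SH Sham, 2117 to 2222 CPM in SH SNA, 2158 to 2244 CPM in EE Sham and 2128 to 2153 CPM in EE + SNA. Ngfr is also in the list of immature cells. Mbp, Mag and Sox10 are also oligodendrocyte genes, but of the oligodendrocyte markers Olig2 and Opalin had 0 counts in 12 of 12 samples and Mog at most 4, and the 6 markers summed to 2.80 to 7.90 CPM. Among them Mobp rose (adjusted P = 0.0416). The 4 astrocyte markers summed to at most 47.1 CPM, with 0 called in edgeR and 2 at the unadjusted threshold.

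Tissue around the ganglion varied between samples. The 4 skeletal muscle genes summed to 642 CPM in SH SNA replicate 2 and to 2.17 to 105.6 CPM in the other 11 samples, and 0 of 4 were called in edgeR, with 4 higher at the unadjusted threshold. Adipocyte genes summed to 5.74 to 18.1 CPM in EE + SNA and to 1.88 to 7.44 CPM in the other groups, with 0 of the 2 tested called at either threshold in edgeR. Against SH Sham alone, however, Adipoq rose in EE + SNA (log2 fold change 1.51, adjusted P = 0.0235), and both genes tested were higher in EE + SNA at the unadjusted threshold against each of the other 3 groups. Of 3 red blood cell genes 1 rose, Alas2, but against SH Sham all 3 rose in EE + SNA (median log2 fold change 1.09), the comparison in which Mbp, Pmp22 and Prx were called, and 2 rose in SH SNA (Hba-a1 and Alas2). Their sum was highest in SH SNA replicate 3 (516 CPM) and EE + SNA replicate 3 (595 CPM), which were also the highest of their groups for most of the myelinating genes. EE Sham replicate 2 (307 CPM) was highest in its group for both as well. EE Sham replicate 1, lowest for 7 of the 8 genes, had 280 CPM, above the 111 CPM of replicate 3. SH Sham replicate 3 had the highest blood sum of its group (184 CPM) and the lowest sum of the 8 genes. Of 5 endothelial genes 1 rose, Cdh5, a share near that of all genes, with sums of 66.2 to 87.4 CPM in SH Sham, 77.5 to 88.2 CPM in SH SNA, 62.9 to 79.3 CPM in EE Sham and 85.8 to 97.3 CPM in EE + SNA. Without SH SNA replicate 2, the log2 fold changes of the SNA effect over both housings were 0.44 for Mbp, 0.39 for Pmp22 and 0.23 for Sox10, and the same 4 genes were called. That sample was the lowest of its group for 7 of the 8 genes, so leaving it out raises these changes. They therefore do not show whether muscle RNA played a part, which was not tested. The share of all genes called without it is not given.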

How the data were processed

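RNA of 12 samples was sequenced as paired ends from mRNA libraries. The authors used TopHat for alignment to mm10 and HTSeq for counting, and the deposited counts are whole reads per gene with no normalization. HTSeq's 5 summary lines were left out, of which reads assigned to no counted feature took 46.7% to 47.6% of the total. The strand setting is not given in the sources used here. The deposited FPKM, scaled for gene length and library depth, were computed by the authors.

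With edgeR 4.0.16 (R 4.3.3), genes were filtered by filterByExpr (10 counts, total of 15), TMM factors were computed on the samples of each comparison, and genes were tested with the two-sided quasi-likelihood F test, fitted on the 6 samples of 2 groups or on all 12. Genes were called at a Benjamini-Hochberg adjusted P of 0.05 over 16238 genes, and at an unadjusted 0.05 beside it. Standard errors are the log2 fold change divided by the root of F, and intervals use the t quantile of the fit's degrees of freedom. An exact permutation test of 3 against 3 samples cannot give a P below 0.1. Counts of replicates differed by more than sampling noise (chi-square per degree of freedom 3.87 to 8.54). Scripts were tested on simulated data.

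The genes and lists were chosen with earlier results of these data known. Named were all 8 genes, from each list at most 4 called genes with the largest SNA effect over both housings, and the 5 genes most alike in their deviations (log2 CPM with a prior count of 2). Sox2, Nipal1 and the ranks of single genes were named after their values were seen. One gene is not reported here and was left out of the counts of its list. Lists of marker genes were of sensory neurons, satellite glia, non-myelinating Schwann cells, oligodendrocytes, astrocytes, macrophages, fibroblasts, endothelium, adipocytes, muscle, red blood cells and the injury response.

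Neither labels nor study describe pairing. Between EE Sham and SH Sham, deviations of samples with the same replicate number correlated with r of 0.331, 0.137 and 0.111. The highest r between different numbers was 0.194, so these values do not show pairing. Between EE + SNA and SH SNA, every r of the same number (at least 0.0573) was above those of different numbers (at most 0.0403). The main tests used no replicate block. Alternatives were the likelihood ratio test, DESeq2 1.42.0, scaling by library size, other filters, 12 samples in one fit, the replicate block, limma 3.58.1 on log2 of the FPKM plus 1 or 0.1, and leaving out each sample.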

Additional observations from a re-analysis of the deposited data

How the results depend on the processing

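Of 920 log2 fold changes of the 8 genes under the alternatives, 868 kept their side of the adjusted threshold, 15 lost a call and 37 gained one. In 57 the sign changed, all of them values that were called neither before nor after. Without the filter on low counts, 5 of the 8 genes rather than 0 were called for SH SNA against SH Sham, 1 rather than 0 for EE Sham against SH Sham, and 1 rather than 0 for the interaction. The number for EE + SNA was then 5 rather than 3 against SH Sham and 4 rather than 0 against EE Sham, and 7 rather than 4 were called in the SNA effect over both housings. DESeq2 called 1 for SH SNA against SH Sham. The likelihood ratio test called 2 between EE + SNA and EE Sham. Between EE + SNA and SH Sham, DESeq2 and the likelihood ratio test each called Ncmap beside the same 3 genes. With all 12 samples in one fit, 0 were called between EE + SNA and SH Sham and 1 between EE + SNA and EE Sham. With log2(FPKM + 1) or log2(FPKM + 0.1), 1 was called between EE + SNA and SH Sham. No share of all genes stands beside these counts or those with a sample left out. They therefore describe the setting and are not a result about the 8 genes alone. The cause was not tested.

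When single samples were left out, the number called was 0 to 4 for SH SNA against SH Sham and 3 to 6 for the SNA effect over both housings. For EE + SNA it was 1 to 3 against SH Sham and 0 to 5 against EE Sham, and it was 0 throughout for the other 3 comparisons.

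With the replicate number as a block, 1 gene (Pmp2) was called between EE Sham and SH Sham and 2 (Mbp and Pmp22) between EE + SNA and EE Sham, where the numbers do not pair the samples (lowest r −0.142). Between EE + SNA and SH Sham, where they do not either (lowest r −0.173), the block called Prx and Ncmap, with Mbp at an adjusted P of 0.0502 and Pmp22 at 0.0583. The block changed no other adjusted call of the 8 genes. The 4 calls of the SNA effect over both housings were also made by DESeq2, the likelihood ratio test, scaling by library size, log2(FPKM + 0.1), the block and the stricter filter, and log2(FPKM + 1) did not call Mbp (adjusted P = 0.0506). Scaling by library size moved the median log2 fold change of all genes by −0.0174 to 0.0034.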
